A study of Homo sapiens with 6 samples.

Results

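The CDK4 and GLI1 locus lies on the long arm of chromosome 12 in band q13, and it was examined here by chromatin accessibility in RH30 cells through 10 genes: CDK4, GLI1, TSPAN31, OS9, AGAP2, METTL1, TSFM, AVIL, CTDSP2 and DDIT3. Overlapping ATAC-seq peaks of 6 libraries were merged into regions, and a region belonged to the locus when its highest summit lay in the body of one of these genes or within 50 kb of it in the GENCODE annotation of hg38. Of 105569 regions in the genome, 76 belonged to the locus and 5117 others lay on chromosome 12. The 76 regions fell in a pair of windows, chr12:57409785-57571737 around GLI1 and DDIT3 and chr12:57643841-57896729 from OS9 to CTDSP2.

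RH30 is an established line of fusion-positive alveolar rhabdomyosarcoma, a childhood tumour of the skeletal muscle lineage. All cells were given Cas9 and guide RNA, by a route that the sources do not name for these libraries. Of the libraries, 3 came from cells given scramble guide RNA (vector) and 3 from cells given guides against MyoD (MyoD-deleted). The cells were grown in RPMI with serum, with no other treatment named in the labels. The sources used here do not say whether the cells of these libraries were pools or single clones, so unedited cells may remain. The labels and methods name the cells RH30. The study's results name them RH30 in some places and RH30-SR, RH30 with the NF-κB inhibitor IκBα super repressor, in others. Whether both groups carried that repressor is therefore not settled. The labels call the replicates biological and do not name separate rounds of editing, so p-values measure the spread between these cultures. ATAC-seq marks open chromatin by inserting sequencing adapters with Tn5 transposase, and a peak is a place where the inserted fragments pile up over the local background.

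CDK4 is the cyclin D-dependent kinase that phosphorylates the retinoblastoma protein and lets cells enter S phase, and GLI1 is the transcription factor at the end of the Hedgehog pathway. The segment of 12q13 that holds both genes is amplified in a subset of fusion-positive rhabdomyosarcomas, in liposarcomas and in glioblastomas. An amplified segment gives more fragments to an ATAC-seq library than a segment of normal copy number, both in its peaks and between them. MyoD is the muscle lineage transcription factor, which binds E boxes as a dimer with an E protein.

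Read totals are not part of the peak lists, which leaves sequencing depth unknown, and no counting interval is given. The libraries held 63140 to 74121 peaks in the vector group and 73745 to 80608 in the MyoD-deleted group. The smallest local background of a library, a measure of its depth, was 3.41, 2.22 and 2.74 fragments in vector replicates 1 to 3 and 2.27, 2.28 and 2.35 in the MyoD-deleted replicates. The summit pileup, the number of fragments over the highest base of a peak, and the local background were recovered for every peak from its fold enrichment and Poisson p-value. The targeted gene itself had a 5′ region in all 6 libraries, with pileups of 545, 400 and 506 in vector cells and 256, 373 and 366 in MyoD-deleted cells (log2 change -0.49, adjusted p = 0.0021 by limma), but a peak at MYOD1 does not show whether the protein was lost. Of 8 muscle lineage markers (MYOD1 among them), all had a 5′ region in all 6 libraries and 6 fell (against 2.70% of all 5′ regions), while none of the 10 markers of blood, epithelium, endothelium, liver and glia had one.

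The CDK4 5′ region was the highest summit of the whole genome in each of the 6 libraries. It spans chr12:57751652-57753082, with its top summit 129 bases upstream of the 5′ end of the canonical CDK4 transcript, which is read from the minus strand. The RefSeq sequence of the 250 bases before the CDK4 start on the minus strand (chr12:57752311-57752560, GRCh38.p14) is shown because it underlies that summit, with the E box core CAGCTG in capitals.
CDK4 promoter: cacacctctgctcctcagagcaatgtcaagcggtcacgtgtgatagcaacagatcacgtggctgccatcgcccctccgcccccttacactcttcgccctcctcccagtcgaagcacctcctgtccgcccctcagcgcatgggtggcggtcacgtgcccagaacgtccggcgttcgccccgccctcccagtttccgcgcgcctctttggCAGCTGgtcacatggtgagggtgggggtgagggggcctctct
This stretch is 65.6% G and C. Of 35116 RefSeq promoter stretches of the same length, 14.0% held CAGCTG on either strand. RefSeq entries of the same kind matched 8 of the 10 genes, all but GLI1 and METTL1.

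At CDK4 the summit pileups were 7065, 6117 and 7145 fragments in vector replicates 1 to 3 and 5745, 6270 and 6898 in MyoD-deleted replicates 1 to 3. The vector and MyoD-deleted values overlapped. They were 29.2 to 34.6 times the median pileup over the 558 other 5′ regions of chromosome 12 that were called in all 6 libraries, which was 177 to 242 fragments. A region at the overlap of OS9 and AGAP2, chr12:57725815-57727141, came second in mean height with pileups of 6393, 5251 and 6585 in vector cells and 5075, 5297 and 5469 in MyoD-deleted cells. Its summit was in an OS9 intron and an AGAP2 exon, 12.3 kb inside AGAP2 from that gene's 5′ end. Among the 20 highest summits of each library, 12 to 14 were in the locus. The highest summit of any library outside the locus was the 5′ region of ATP23, a mitochondrial protease gene on the same chromosome arm (chr12:57940873-57942187), which ranked 6th or 7th.

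The other genes of the segment followed at lower levels. OS9, a lectin of the endoplasmic reticulum that sorts misfolded glycoproteins for degradation, had 4508, 3886 and 4308 fragments in vector cells and 3717, 4211 and 4497 in MyoD-deleted cells at its 5′ region. TSPAN31, a tetraspanin gene that neighbours CDK4, had 4574, 3684 and 4345 in vector cells and 3665, 3873 and 4178 in MyoD-deleted cells. METTL1, the catalytic subunit of the enzyme that methylates guanosine in tRNA, had 4488, 3754 and 4365 in vector cells and 3576, 3792 and 4067 in MyoD-deleted cells. The pileups of these 3 genes overlapped over the libraries and ran from 18.2 to 21.95 times the chromosome 12 median. Whether they differed within libraries was not tested. CTDSP2, a phosphatase of the RNA polymerase II tail, stood at 3913, 3579 and 4155 in vector cells and 3400, 3150 and 3499 in MyoD-deleted cells, or 15.2 to 20.2 times that median.

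DDIT3, which encodes the stress factor CHOP of the unfolded protein response, had 2391, 1965 and 2350 fragments at its 5′ region in vector cells and 1711, 1787 and 2069 in MyoD-deleted cells. GLI1 had 2000, 1569 and 1929 fragments in vector cells and 1431, 1463 and 1591 in MyoD-deleted cells, in a region at chr12:57459030-57460238 with its summit 461 bases upstream of the 5′ end. TSFM, a mitochondrial translation elongation factor, had 1581, 1268 and 1564 in vector cells and 1525, 1398 and 1551 in MyoD-deleted cells. DDIT3 stood at 8.61 to 11.1 times, GLI1 at 7.05 to 8.86 times and TSFM at 6.53 to 7.78 times the median, and the ranges of neighbours in this order overlapped, though DDIT3 was above GLI1 in 6 of 6 libraries and GLI1 above TSFM in 5 of 6. For AGAP2, a GTPase-activating protein of the nuclear phosphoinositide 3-kinase pathway, and AVIL, an actin-binding protein of the villin family, none lay within 1 kb of the 5′ end in all 6 libraries, so the nearest region inside the gene was taken. For AGAP2 that region held 1275 to 2185 fragments, 2.71 kb from the 5′ end. For AVIL it held 100 to 135 fragments, 0.482 to 0.672 times the chromosome 12 median, 3.22 kb from the 5′ end, and a region at its own 5′ end was called in vector replicate 1 alone. The plot of pileups by gene shows AVIL as the one gene of the 10 below the chromosome 12 median for 5′ regions. Its region is not a 5′ region, however. The other chromosome 12 regions farther than 1 kb from 5′ ends had median pileups of only 41 to 62 fragments. The AVIL background was 3.82 to 4.57 times the chromosome 12 median for 5′ regions.

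**Figure D1:**
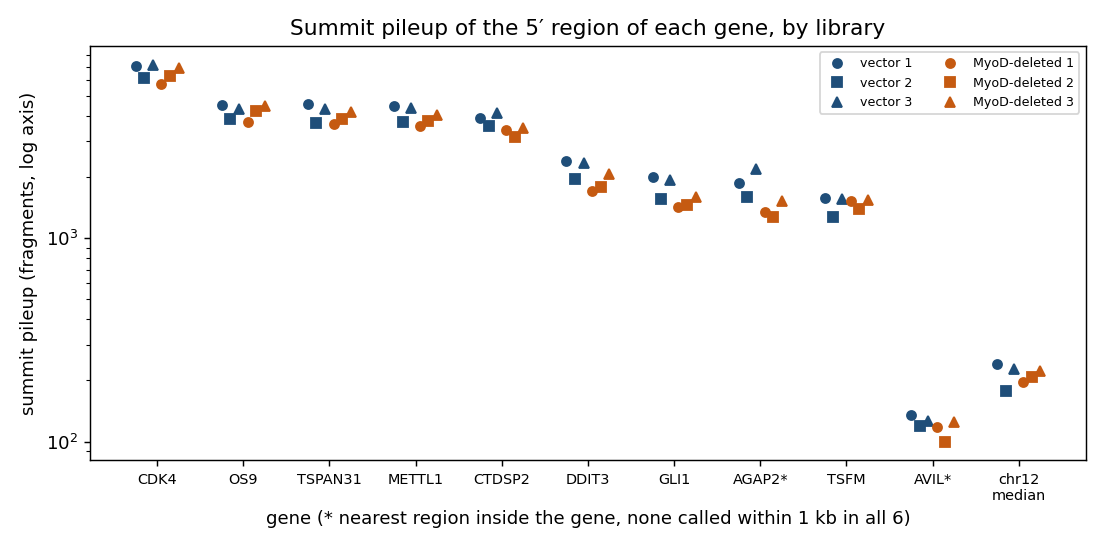
Summit pileup in fragments (log axis) of the 5′ region of each gene in each library, with the median over 558 other chromosome 12 5′ regions at the right. For AGAP2 and AVIL the nearest region inside the gene is shown. Circles, squares and triangles are replicates 1, 2 and 3, with vector in blue and MyoD-deleted in orange, and CDK4 stands highest at 5745 to 7145 fragments while AVIL lies at 100 to 135.

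The locus was raised in its background as well as in its summits. Over the 40 regions of the locus called in all 6 libraries, the median summit height was 4.33 to 6.57 times that of the 2366 other chromosome 12 regions called in all 6, a difference of 2.51 ± 0.23 on the log2 scale (SD, n = 6). The median local background was 9.96 to 13.7 times as high, a difference of 3.56 ± 0.17 on the log2 scale (SD, n = 6). Where a peak had to cover at least 50% of its region, the order of the pair turned, with 3.75 in height and 3.69 in background. By group, the height difference was 2.34 ± 0.20 in vector and 2.68 ± 0.04 in MyoD-deleted cells (SD, n = 3 each), and the background difference was 3.43 ± 0.13 and 3.68 ± 0.08. The height differences of the groups did not overlap, with 2.11 to 2.48 in vector and 2.64 to 2.72 in MyoD-deleted cells, and this is given as a description with no test. Near 5′ ends the height difference from the same kind of region was not higher in MyoD-deleted cells, with 3.05 to 3.26 in vector and 2.82 to 3.13 in MyoD-deleted cells. Farther from 5′ ends it was 1.48 to 1.68 and 1.80 to 2.09. Against the other autosomes in place of chromosome 12 as the reference, the background difference was 3.59.

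Regions near 5′ ends stood out most. For the 15 regions within 1 kb of a protein-coding 5′ end, the height was 7.07 to 9.56 times and the background 16.2 to 20.9 times the median of the 559 other chromosome 12 regions of that kind. For the 25 regions farther from 5′ ends, the height was 2.78 to 4.26 times and the background 8.47 to 10.3 times that of the 1807 others. Not 1 of the 52 to 63 peaks a library had in the locus lay at the library's smallest background (within 1%), where 25.2% to 31.1% of its other chromosome 12 peaks lay, and the lowest background of any peak in the locus was 3.60 to 5.11 times that smallest value. The peak caller's background can include fragments of the peak itself and of its neighbours, so the ratios are not copy numbers, and copy gain and dense open chromatin cannot be told apart in these files.

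A peak high in pileup could be low in fold enrichment. The GLI1 5′ region was at the 99.9th percentile of all 5′ regions by height in every library, and its background was 24.2 to 36.4 times the chromosome 12 median for 5′ regions. Its fold enrichment of 3.11 to 3.95 placed it between the 0.517th and 1.38th percentiles of 5′ regions. At CDK4 the background was 31.3 to 37.3 times that median and the fold enrichment 10.9 to 12.5, between the 36.1st and 48.7th percentiles. At OS9, whose background was 14.3 to 17.0 times the median, the fold enrichment lay between the 88.3rd and 95.7th percentiles. The order of the genes by fold enrichment was therefore not their order by pileup.

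Along chromosome 12 the raised background reached past the 10 genes. In bins of 100 kb, the run around CDK4 in which the median background was at least 2 times the chromosome 12 median in all 6 libraries was 600 kb long, from 57400001 to 58000000. The bin from 57700001 to 57800000, which holds TSPAN31, CDK4 and METTL1, stood at 44.05 to 54.6 times the chromosome 12 median. It ranked 1st by the geometric mean of background among 7351 bins of the genome. The bin that holds GLI1, from 57400001 to 57500000, stood at 13.5 to 17.3 times and ranked 3rd. Between them, the bins from 57500001 to 57700000 stood at 3.77 to 5.79 times, so this run showed a pair of maxima and not a plateau. The length depended on its definition, with 500 kb at a factor of 3 and 1500 kb at a factor of 1.5. To the left the run stopped at a bin whose lowest library stood at 1.95 times, beyond which the bins from 57000001 to 57300000 stood at 4.19 to 15.6 times. Of these, the bin from 57200001 to 57300000 ranked 7th in the genome, a further maximum outside the run and the windows. By the lowest background in a bin, in place of the geometric mean, the ranks differed. The CDK4 bin was then 43rd, the GLI1 bin 45th and the bin from 57200001 to 57300000 73rd. The bin from 57800001 to 57900000 was 11th by the mean and 5th by the lowest. The unbroken run of regions whose background was over 1.5 times the smallest in every library that called them reached from 56987439 to 58053388, with 192 regions over 1066 kb.

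**Figure D2:**
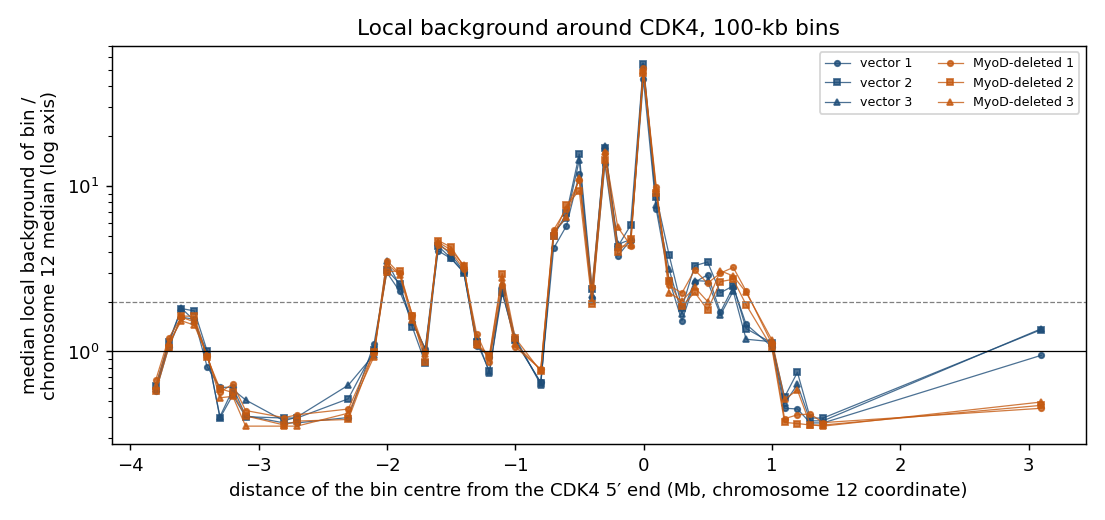
Median local background of the regions in each 100-kb bin over the chromosome 12 median (log axis) against distance from the CDK4 5′ end in Mb, 1 line a library, with bins that hold no region passed over by the line; the solid line marks 1 and the dashed line the factor of 2. All 6 libraries peak at CDK4, at 44.05 to 54.6, with lower maxima near GLI1 and farther to the left.

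Other genes of 12q varied in height inside and outside the windows. Inside the GLI1 and DDIT3 window, the 5′ regions of MBD6 (6.63 to 9.93 times the chromosome 12 median in height) and MARS1 (5.92 to 7.46 times) were high, those of DCTN2 (0.607 to 0.752 times) and ARHGAP9 (0.395 to 0.761 times) lay below that median, and INHBC and KIF5A had none called in all 6. Between the windows ARHGEF25 stood at 4.98 to 5.85 times, B4GALNT1 at 3.43 to 3.81 times, PIP4K2C at 2.12 to 2.44 times and DTX3 at 1.07 to 2.36 times. Toward the centromere SHMT2 stood at 7.04 to 8.26 times and LRP1 at 5.39 to 5.81 times, but STAT6 at 2.40 to 3.98 times and ERBB3 at 1.34 to 1.59 times. Toward the telomere ATP23 stood at 13.8 to 17.6 times, but LRIG3 at 1.00 to 1.14 times. MDM2, HMGA2, FRS2 and YEATS4, which are amplified with CDK4 in liposarcoma, had medians over the libraries of 1.08, 0.340, 0.925 and 1.09 times. Among 11894 genes outside the windows, the 3 whose 5′ background was most like that of CDK4, by the root mean square difference of log2 background over the 6 libraries, were NAB2, ATP23 and NXPH4, and they were the same 3 for GLI1. All 3 are on chromosome 12. Their distances were 1.09, 1.34 and 1.59 from CDK4 and 0.90, 1.14 and 1.37 from GLI1, and their backgrounds of 64.8 to 119 times the smallest lay below the 163 to 244 of CDK4 and GLI1.

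The comparison of MyoD-deleted with vector cells asked whether losing MyoD changed accessibility at the locus. Of the 40 regions called in all 6 libraries, 10 rose in summit height (25.0%, against 11.4% of all 47885 regions tested) and 2 fell (5.00%, against 12.8%), with the call at an adjusted p under 0.05 in limma over all regions. The median change was 0.01 on the log2 scale over the 40 regions and 0.04 over all regions. Heights were set against each library's median region. Without centring, every change shifted by 0.19. Then 12 of the 40 regions rose and 1 fell in the locus, against 11821 and 3843 of all 47885 regions. The share of rises among all calls went from 46.9% to 75.5%. Groups did not overlap at 9 regions above and 3 below vector (12 of 40, against 37.9% of all regions).

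None of the 8 genes with a 5′ region within 1 kb passed the limma test there, and at an unadjusted p under 0.05 there were 2, GLI1 and DDIT3, both lower in MyoD-deleted cells. At CDK4 the log2 change was -0.04 (SE 0.09, 95% interval -0.23 to 0.15, adjusted p = 0.815). At GLI1 it was -0.22 (SE 0.08, interval -0.40 to -0.04, adjusted p = 0.0682), with all 3 MyoD-deleted heights below all 3 vector heights, and at DDIT3 it was -0.20 (adjusted p = 0.110). The changes at OS9, TSPAN31, METTL1, TSFM and CTDSP2 ran from -0.14 to 0.09, with adjusted p from 0.356 to 0.827. These calls rested on vector replicate 1: without it CDK4 (-0.14, adjusted p = 0.0386), GLI1 (-0.29, 0.0014), DDIT3, METTL1 and CTDSP2 all passed as lower. In that fit 11 of 42 regions of the locus fell in place of 2 of 40, against 6842 of all 48563 regions. In the same fit 10 of the 42 rose, against 6523 of all. The local background of these 5′ regions did not pass the test at any of the 8 genes, with log2 changes of -0.24 to 0.11. The background intervals were much wider than those of height, at -1.02 to 1.15 for CDK4 (SE 0.49) and -1.18 to 0.70 for GLI1 (SE 0.42). An unchanged background is therefore not shown there.

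Most of the 12 regions that passed lay beside GLI1 (3 regions) or in and upstream of CTDSP2 (6 regions), as the plot of changes by position shows. Of the 25 regions farther than 1 kb from a 5′ end, 9 rose and 1 fell, against 13.6% and 15.7% of all such regions. Of the 15 within 1 kb of a 5′ end, 1 rose and 1 fell, against 3.46% and 2.70%.

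**Figure D3:**
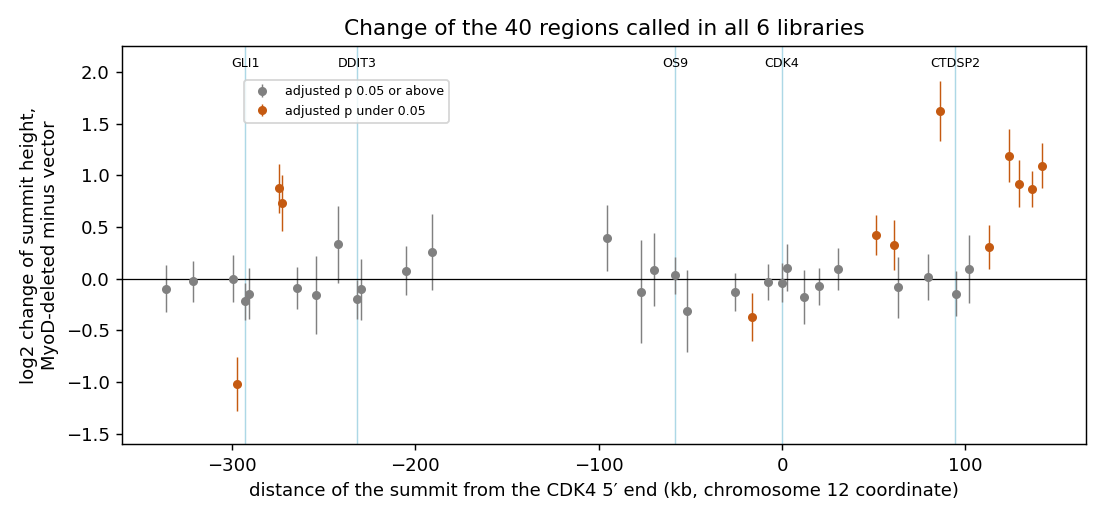
Log2 change of summit height, MyoD-deleted minus vector, of each of the 40 regions called in all 6 libraries, with 95% limma intervals, against distance from the CDK4 5′ end in kb; orange points have an adjusted p under 0.05. The largest rise, 1.62, and the cluster of rises at the right lie around and beyond CTDSP2, and the largest fall, -1.02, lies beside GLI1.

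The rises clustered in and upstream of CTDSP2. The largest was in a CTDSP2 intron at chr12:57837744-57838743, where pileups were 251, 111 and 139 in vector cells and 414, 516 and 459 in MyoD-deleted cells. All 3 MyoD-deleted values stood above all 3 vector values. The height rose 3.08-fold (log2 change 1.62, SE 0.14, adjusted p = 6.28e-07). Beside it, at chr12:57836960-57837309, the locus had its 1 region of 76 called in all MyoD-deleted and no vector libraries (1.32%, against 4.56% of all regions), with pileups of 122, 142 and 165. None of the 76 was called in all vector and no MyoD-deleted libraries, against 1.78% of all regions.

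Between 18.6 and 47.2 kb upstream of the CTDSP2 5′ end, 5 intergenic regions rose. At chr12:57875731-57876718 pileups went from 109, 72 and 90 in vector to 187, 177 and 220 in MyoD-deleted cells, a 2.28-fold rise in height (log2 change 1.19, adjusted p = 2.94e-06). At chr12:57893456-57895775 they went from 337, 313 and 324 to 596, 701 and 691, a 2.13-fold rise (1.09, adjusted p = 1.39e-06). Neither pair of groups overlapped. At chr12:57881011-57882102 they went from 159, 101 and 125 to 204, 253 and 229 (0.92, adjusted p = 1.18e-05), and at chr12:57887919-57889724 from 688, 459 and 589 to 852, 1039 and 1112 (0.87, adjusted p = 1.62e-06). The fifth, at chr12:57864373-57865794, rose by 0.31 (adjusted p = 0.0343) with groups that overlapped, and lost its call without MyoD-deleted replicate 1, 2 or 3 or vector replicate 2 (adjusted p of 0.0867 to 0.163). The CTDSP2 5′ region itself, between the intron and these 5 regions, changed by -0.14 (adjusted p = 0.356).

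The sequences from 100 bases before to 100 bases after the top summit of the 2 regions with the largest rises are shown on the plus strand of hg38, with CAGCTG in capitals. They are chr12:57838184-57838384 for the CTDSP2 intron and chr12:57876094-57876294 for the region upstream of CTDSP2.
CTDSP2 intron: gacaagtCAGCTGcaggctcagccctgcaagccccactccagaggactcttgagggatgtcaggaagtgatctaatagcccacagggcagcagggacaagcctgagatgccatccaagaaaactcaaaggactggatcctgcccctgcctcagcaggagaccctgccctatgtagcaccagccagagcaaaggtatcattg
CTDSP2 upstream: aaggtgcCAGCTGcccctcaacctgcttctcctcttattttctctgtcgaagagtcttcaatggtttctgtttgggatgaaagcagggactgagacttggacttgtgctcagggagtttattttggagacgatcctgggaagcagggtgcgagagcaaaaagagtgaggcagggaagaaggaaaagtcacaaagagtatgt
Each holds a single CAGCTG, 93 bases from the summit.

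At the AVIL end of the TSFM gene, 2 more regions rose. One in introns of both TSFM and AVIL, at chr12:57802873-57803888, had pileups of 345, 233 and 283 in vector cells and 350, 362 and 378 in MyoD-deleted cells (log2 change 0.43, adjusted p = 0.00229). One in an AVIL exon, at chr12:57812942-57814875, had 142, 105 and 121 in vector cells and 135, 144 and 159 in MyoD-deleted cells (0.33, adjusted p = 0.0454), and it lost its call whichever library was left out (adjusted p of 0.0685 to 0.134). In raw pileups the groups overlapped at the exon through vector replicate 1, the library with the greatest smallest background, but not once scaled to the library.

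Around GLI1 the changes went in both directions. INHBE, which encodes an inhibin beta subunit made mainly by liver, has its 5′ end 4.48 kb from that of GLI1. Its 5′ region at chr12:57454537-57455933 had pileups of 1577, 1495 and 1763 in vector cells and 678, 668 and 965 in MyoD-deleted cells, with no overlap. The height fell 2.02-fold (log2 change -1.02, SE 0.12, adjusted p = 1.61e-05). On the other side of GLI1, a region in an ARHGAP9 exon and a MARS1 intron at chr12:57477738-57478713 went from 133, 104 and 132 to 193, 225 and 226 (0.88, adjusted p = 2.66e-05). The ARHGAP9 5′ region rose by 0.73 (adjusted p = 0.000484) from 125, 70 and 95 to 147, 158 and 143. In AGAP2, an intronic region at chr12:57734614-57736698 went from 1865, 1602 and 2185 to 1344, 1275 and 1520 (-0.37, adjusted p = 0.0187), with groups that overlapped in height. Its call was lost without vector replicate 2 or 3 or MyoD-deleted replicate 2 or 3 (adjusted p of 0.0517 to 0.143).

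The sequence from 100 bases before the INHBE summit to the base before the 5′ end of the canonical transcript (chr12:57455193-57455306, plus strand of hg38) is shown. It carries the largest fall of the locus, and CAGCTG is in capitals. The stretch is upstream of the canonical transcript only, since the annotated INHBE gene starts at 57452323 and the summit lies in an intron of it.
INHBE upstream: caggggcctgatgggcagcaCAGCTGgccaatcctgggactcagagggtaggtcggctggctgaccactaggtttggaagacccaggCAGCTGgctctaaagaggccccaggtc
It holds CAGCTG at 2 places, the nearer 13 bases from the summit.

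**Figure D4:**
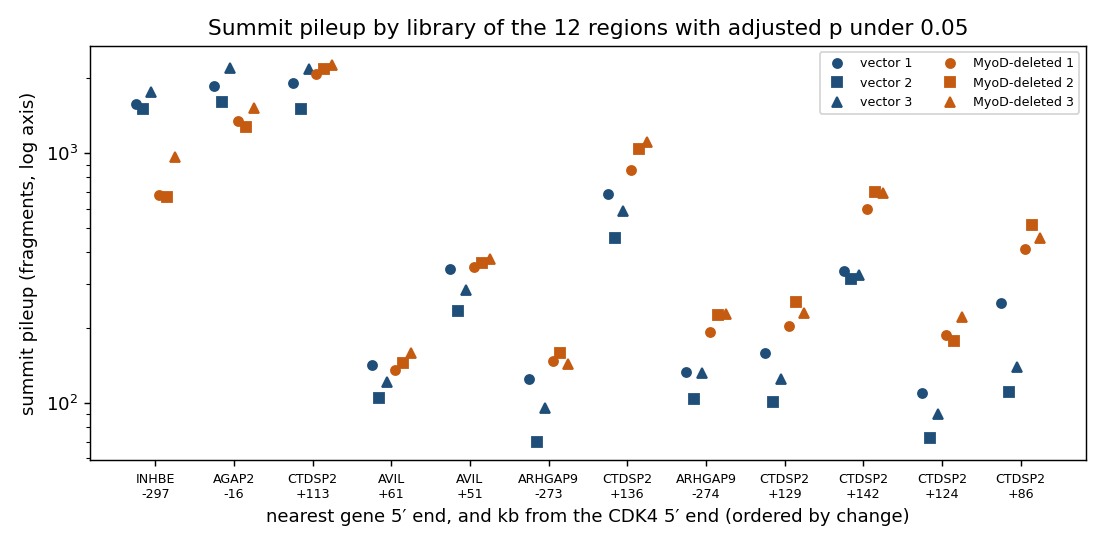
Summit pileup in fragments (log axis) in each library for the 12 regions with an adjusted p under 0.05. They are ordered by their log2 change from the largest fall at the left to the largest rise at the right. Each is named by the nearest 5′ end and by the distance in kb of its own summit from the CDK4 5′ end. Circles, squares and triangles are replicates 1, 2 and 3, with vector in blue and MyoD-deleted in orange, and INHBE falls from 1495 to 1763 fragments to 668 to 965.

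The local background moved with most of the rises. Over the 40 regions it rose at 7 (17.5%, against 13.3% of all) and fell at 3 (7.50%, against 13.8%), with the same test. All 7 regions called by both measures rose in both. The regions that fell in height had lower backgrounds that did not pass. These were INHBE (-0.38, SE 0.23, adjusted p = 0.264) and the AGAP2 intron (-0.27, SE 0.23, adjusted p = 0.425). Their errors were larger than the SE of 0.07 at both ARHGAP9 regions that rose, so rises and falls were not tested equally well. At chr12:57893456-57895775 the background rose by 1.08 on the log2 scale (adjusted p = 8.05e-05), about as much as the height. By rank of fold enrichment, which sets the summit against its background, that region changed by 0.03 (adjusted p = 0.940), and chr12:57887919-57889724 (0.326), chr12:57881011-57882102 (0.0539) and the ARHGAP9 5′ region (0.372) also did not pass, while the CTDSP2 intron and INHBE did.

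Motifs near the summits were counted as letters only, within 100 bases of the summit and on both strands. CAGCTG was present in 7 of the 40 regions (17.5%, against 27.8% of all 47885), in 3 of the 10 that rose (against 15.9% of all that rose) and in 1 of the 2 that fell (against 57.1%). CAGGTG, another E box, was present in 6 of 40 (15.0%, against 15.3%). TGACTCA, the AP-1 motif, was present in 5 of 40 (12.5%, against 17.6%) and in 1 of the 10 that rose (against 33.0% of all that rose). GACCACCCA, the consensus of GLI factors, was in 0 of 40, against 0.370% of all regions.

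The 5′ regions of partners of CDK4, GLI1 and DDIT3 were also followed. Those that passed were 12.5% in the CDK4 pathway, 10.0% in the Hedgehog pathway and none in the unfolded protein response. Over all 5′ regions the share was 6.16%. In the CDK4 pathway (cyclins D and E, CDK6, CDK2, the CDK inhibitors, the retinoblastoma family and E2F factors) 16 of 17 genes had a 5′ region in all 6 libraries, with median heights over the libraries of 0.397 to 2.28 times the chromosome 12 median for 5′ regions. In this list CCND3 rose (0.39, adjusted p = 0.0253) and CCND2 fell (-0.40, adjusted p = 0.0161), both of them cyclin D genes. At an unadjusted p under 0.05 in limma 2 were higher and 2 lower, with CDK6 (0.30) and E2F2 (-0.36) added. In the Hedgehog pathway 10 of 15 had one, at 0.188 to 2.07 times, none rose (also at an unadjusted p under 0.05), and GAS1, a co-receptor of the ligands, fell (-0.49, adjusted p = 0.000969). In the unfolded protein response 8 of 9 had one, at 0.372 to 4.34 times with the stress sensors ERN1 (4.34) and EIF2AK3 (4.24) highest, and none passed the limma test, nor had any an unadjusted p under 0.05. Over all 10632 such regions of the genome, 3.46% rose and 2.70% fell.

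The limit of 50 kb did not fall at an edge of the pattern. Just inside the left limit of the GLI1 window a region had a background of 6.60 to 8.81 times the smallest, and just outside it one at chr12:57388721-57389885 had 6.88 to 9.50 times and rose by 1.19 in height (adjusted p = 0.000146). Just inside the right limit of the CTDSP2 window the background was 17.1 to 44.2 times the smallest and just outside it 11.5 to 13.7 times, with a height change of -0.08 (adjusted p = 0.639). In the gap between the windows the DTX3 5′ region fell by 0.82 on the log2 scale (adjusted p = 0.0001).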

How the data were processed

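ATAC-seq was done on 3 vector and 3 MyoD-deleted RH30 cultures. By the study's methods the authors aligned paired reads to hg38 with Rsubread and called peaks per library with MACS2, whose version and settings are not given in the sources used here. The labels also list bcl2fastq 2.20 and FastQC. The deposited peak lists give, per the labels' format, a score, the fold enrichment (a ratio), −log10 p, −log10 q and the summit position as an offset. Pileup and local background were solved from the deposited fold enrichment and −log10 p, checked on simulated data. Mitochondrial peaks were left out. Peaks were merged where they overlapped or touched. Height is log2 of the pileup divided by the smallest background of that library, minus the library's median. Background was treated alike. Groups were compared with limma 3.58.1 (R 4.3.3; lmFit, eBayes with trend) on the 47885 regions called in all 6 libraries, with Benjamini-Hochberg adjustment. The study's test on read counts was not run, since peak lists hold none. Gene 5′ ends are those of the canonical transcripts of GENCODE v44. A gene's 5′ region is the nearest region called in all 6 libraries within 1 kb, or else within the gene. The regions named are those of the 10 genes, those with an adjusted p under 0.05, the highest, the outermost and the gained or lost. The members, gene lists and motifs were chosen with earlier results of these data known. Alternatives were the centring, ranks of fold enrichment, a q minimum, a 50% overlap, each library left out, the replicate number as a block, other flanks, bins and factors, and equal numbers of peaks.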

Additional observations from a re-analysis of the deposited data

How the results depend on the processing

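Of the 12 called regions, 6 to 11 kept their call under each other fit, the fewest by rank of fold enrichment, and none of the 20 regions followed reversed a call. Leaving out 1 library gave 8 to 10 regions of the locus higher, 1 to 11 lower (11 without vector replicate 1), 7 to 8 with higher and 1 to 5 with lower background, 3584 to 6523 of all regions higher and 4522 to 6842 lower, and differences from chromosome 12 of 2.40 to 2.62 in height and 3.41 to 3.64 in background. Uncentred heights gave 1 region lower, with 11821 higher and 3843 lower over all. Ranks of fold enrichment gave 6 higher and 1 lower, with 1973 and 2234 over all. A 50% overlap left 37873 regions tested, 4088 of them lower, and in the locus 1 with lower background and differences of 3.75 in height and 3.69 in background. A −log10 q of at least 5 gave differences of 3.53 in height and 3.86 in background, and 3 regions gained. Equal numbers of peaks gave 2 gained and 1 lost. With no flank, of 15 regions, 3 were higher and 1 lower, 1 had higher and 1 lower background, and the differences were 4.44 and 5.15. With a flank of 100 kb, 5 of 55 had lower background and the background difference was 3.14. Within 1 kb of 5′ ends the differences were 3.08 and 4.19, and farther away 1.77 and 3.24. The block was 1400 kb in bins of 200 kb, 1500 kb at a factor of 1.5 and 200 kb by the lowest background of a bin. Apart from the changed sets of regions, the causes were not tested.

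Same-numbered libraries did not deviate together (r = -0.04, -0.20 and 0.09 over 47885 regions), so the numbers do not pair them. With the replicate block, 9 regions of the locus were higher and 3 lower, GLI1 passed as lower (adjusted p = 0.0428) and the AVIL exon did not pass (0.0746). With 3 libraries a group and no read totals, small changes at single regions are beyond these data.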
